A study of Mus musculus with 15 samples.

Results

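The effect of hepatocyte p21, averaged over mid and late pregnancy, was examined in maternal livers. The cyclin-dependent kinase inhibitor p21, encoded by Cdkn1a, was delivered with the adeno-associated virus AAV8-p21, and an empty vector, AAV8-null, served as the control. All 6 AAV8-p21 livers, 3 from 8 days post-coitum (dpc) and 3 from 16 dpc, were compared with the 6 AAV8-null livers of those stages, with stage as a covariate, so that each difference is an average over both stages. These are 12 of the 15 RNA-seq libraries of the series, and the other 3, from non-pregnant AAV8-null mice, have no AAV8-p21 counterpart.

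All mice were wild-type adult females, C57BL/6 in the labels and of the substrain C57BL/6N in the study's methods, and carried a vector given by tail vein before mating. The promoter for thyroxine-binding globulin drives expression from the p21 vector in the liver, essentially in hepatocytes, and the animals kept their own Cdkn1a gene. Each library was made from a piece of whole liver, so other liver cells contributed RNA, and fewer cells of a type cannot be told apart from less RNA per cell. The labels number the mice within a group but do not say whether mice were injected or dissected together, so p-values measure the spread between these samples. Total counts on genes ranged from 12977026 to 17615185 per library.

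As background, p21 binds complexes of cyclins and cyclin-dependent kinases. At high levels it blocks the kinases that phosphorylate the retinoblastoma family of pocket proteins, and the genes of DNA replication and mitosis then stay repressed. D-type cyclins are their partners in G1, the phase before DNA replication. Hepatocytes are mostly quiescent in the adult but can re-enter the cell cycle, and pregnancy is one setting in which the liver grows. The liver also makes fatty acids and cholesterol, stores glycogen and secretes most complement proteins.

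A few facts of the libraries touch the results that follow. Cdkn1a matched the vector label in all 12 libraries. Alb, the hepatocyte product albumin, held at 8 dpc 7.9% to 10% of all counts with AAV8-null and 11.7% to 12.9% with AAV8-p21, and at 16 dpc 23.5% to 27.8% and 20.5% to 22.2%, so the vectors did not overlap at either stage and differed in opposite directions. Mitochondrially encoded genes held 4.74% to 5.02% with AAV8-null and 3.698% to 4.501% with AAV8-p21 at 8 dpc, without overlap, and 2.39% to 3.32% and 2.74% to 3.27% at 16 dpc. The part of these shares in the results was not tested. Library 3 of the AAV8-null group at 8 dpc stood apart from its 2 companions in mitotic genes and in genes of fatty acid oxidation, and library c of the AAV8-p21 group at 16 dpc stood apart from its companions in lipid genes. The 3 libraries of that group are called a, b and c because their column numbers are not those of the labels. A clock score took the mean log2 level (CPM, counts scaled to library size) of 3 activator genes (Clock, Npas2, Arntl) and subtracted the mean of 6 that peak opposite to them (Ciart, Per3, Nr1d2, Nr1d1, Tef, Dbp). It ran from -1.22 to 1.80 in the AAV8-null livers. It ran from -4.42 to -2.57 in the AAV8-p21 livers of 16 dpc and from -2.86 to 2.64 in those of 8 dpc. The time of day at dissection is not given in the sources used here, so the part of the clock in the results was tested only by adding this score to the fit. Nnt, of which the C57BL/6J substrain carries a deletion, was at 2 to 22 counts in all 12 libraries, with a log2 difference between vectors of 0.12 (adjusted p = 0.909), although the methods name C57BL/6N. The substrain of the mice was not tested here.

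Across the 12091 genes tested, 7 were called at an adjusted p under 0.05 by edgeR's quasi-likelihood test, which is 0.0579% of them. Cdkn1a, Ccnd1 and Gnat2 rose (3 genes, 0.0248%), and C1s2, C1rb, Pianp and Cpeb2 fell (4 genes, 0.0331%). All 7 called genes had every AAV8-p21 library on one side of every AAV8-null library at each stage, a pattern that 214 genes (1.77%) showed in either direction. The median log2 fold change of all genes was -0.0019. Without adjustment 1570 genes (13.0%) had p under 0.05, 6.29% of all genes higher and 6.69% lower. The Wald test of DESeq2, the tool of the study, called 208 genes of 13191, or 1.58%, of which 86 were higher and 122 lower with AAV8-p21. The count of changed genes thus depended on the tool, and every gene described as rising or falling here passed the edgeR test.

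**Figure D1:**
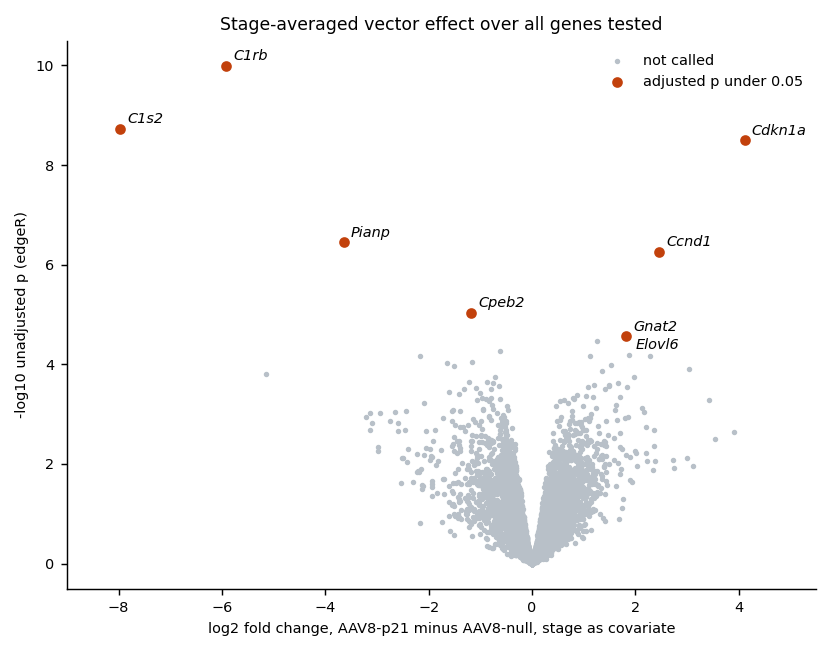
Volcano plot of the stage-averaged vector effect, with the log2 fold change of AAV8-p21 minus AAV8-null on the x axis and −log10 of the unadjusted edgeR p on the y axis, 1 point per gene. The 7 called genes are in orange, and C1rb, C1s2 and Cdkn1a lie farthest from the other genes, while Elovl6 (adjusted p = 0.0644) falls just below the call.

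Cdkn1a, the gene carried by the vector, rose 17.3-fold. In the AAV8-null livers of 8 dpc it stood at 26.1, 15.8 and 32.1 CPM, and those of 16 dpc had 61.7, 122 and 57.3 CPM. The AAV8-p21 livers held 623, 603 and 333 CPM at 8 dpc and 1595, 782 and 1047 CPM at 16 dpc. The highest AAV8-null liver was below the lowest AAV8-p21 liver, so the vectors did not overlap at either stage. The log2 fold change was 4.11 ± 0.31 (SE, n = 6 livers per vector, adjusted p = 1.3e-05). An exact two-sided permutation test of the single value, exchanging vector labels within each stage, gave p = 0.005 over 400 arrangements, which is the smallest p it can give. The same test was run on Ccnd1 and Elovl6, and adjusted over these 3 genes by Benjamini-Hochberg each p stays at 0.005. Any gene whose vectors do not overlap, in the same direction, at both stages gets this p by construction. That pattern held for 214 genes (1.77%), so the p does not set these 3 apart from them. The adjustment does not cover how the 3 were chosen. The levels do not separate the vector's transcript from the mouse's own. The p21 cDNA was amplified with the 2 primers below, shown because they mark what the vector carries. Capitals mark the start codon in the forward primer and the complement of the stop codon in the reverse primer.
Forward primer: accATGtccaatcctggtgatg
Reverse primer: TCAgggttttctcttgcagaag
They bound the 480 bases from start to stop codon, a stretch found whole in the annotated protein-coding Cdkn1a transcripts (GRCm38, chr17:29090976-29100727, plus strand), so reads from the vector and from the endogenous coding sequence fall on the same bases.

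Ccnd1, which encodes cyclin D1, rose 5.51-fold. It measured 69.6, 111 and 91.9 CPM in the AAV8-null livers of 8 dpc and 20.3, 20.7 and 25.2 CPM in those of 16 dpc. With AAV8-p21 it measured 216, 401 and 382 CPM at 8 dpc and 157, 266 and 131 CPM at 16 dpc. Every AAV8-p21 liver lay above every AAV8-null liver across both stages. The log2 fold change was 2.46 ± 0.28 (SE, adjusted p = 0.0013). The exact permutation test of the single value gave p = 0.005, which the lack of overlap at both stages fixes. Without the 3 AAV8-p21 livers of 16 dpc the log2 fold change was 1.87 and was not called (adjusted p = 0.0743, an alternative chosen after seeing the data). The difference was 1.84 at 8 dpc and 2.98 at 16 dpc in mean log2 CPM, and its change with stage was not called (unadjusted p = 0.016, adjusted over all genes none passed). Ccnd1 lies at chr7:144929931-144939925 on the minus strand of GRCm38.

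The other D-type cyclins, their kinases, the other kinase inhibitors and the pocket proteins held no other edgeR call. The list, Ccnd1 included, had 12 members tested and a median log2 fold change of -0.18. Cdkn2c, which encodes the CDK4 and CDK6 inhibitor p18, had a log2 fold change of -1.16 ± 0.21 (adjusted p = 0.0762), with every AAV8-p21 liver below the AAV8-null livers of its stage. The inhibitor p27, encoded by Cdkn1b, ranged from 10.7 to 20.1 CPM with AAV8-null and from 7.26 to 11.8 CPM with AAV8-p21, a log2 fold change of -0.87 (adjusted p = 0.107). Both passed the DESeq2 test (adjusted p = 0.00037 for Cdkn2c and 0.0020 for Cdkn1b). Ccnd2, encoding cyclin D2, had a log2 fold change of 0.71 (adjusted p = 0.211), Cdk6 0.62 (adjusted p = 0.206) and Rb1, the retinoblastoma gene, -0.47 (adjusted p = 0.312). These 5 genes other than Ccnd1 were named after their values were seen.

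**Figure D2:**
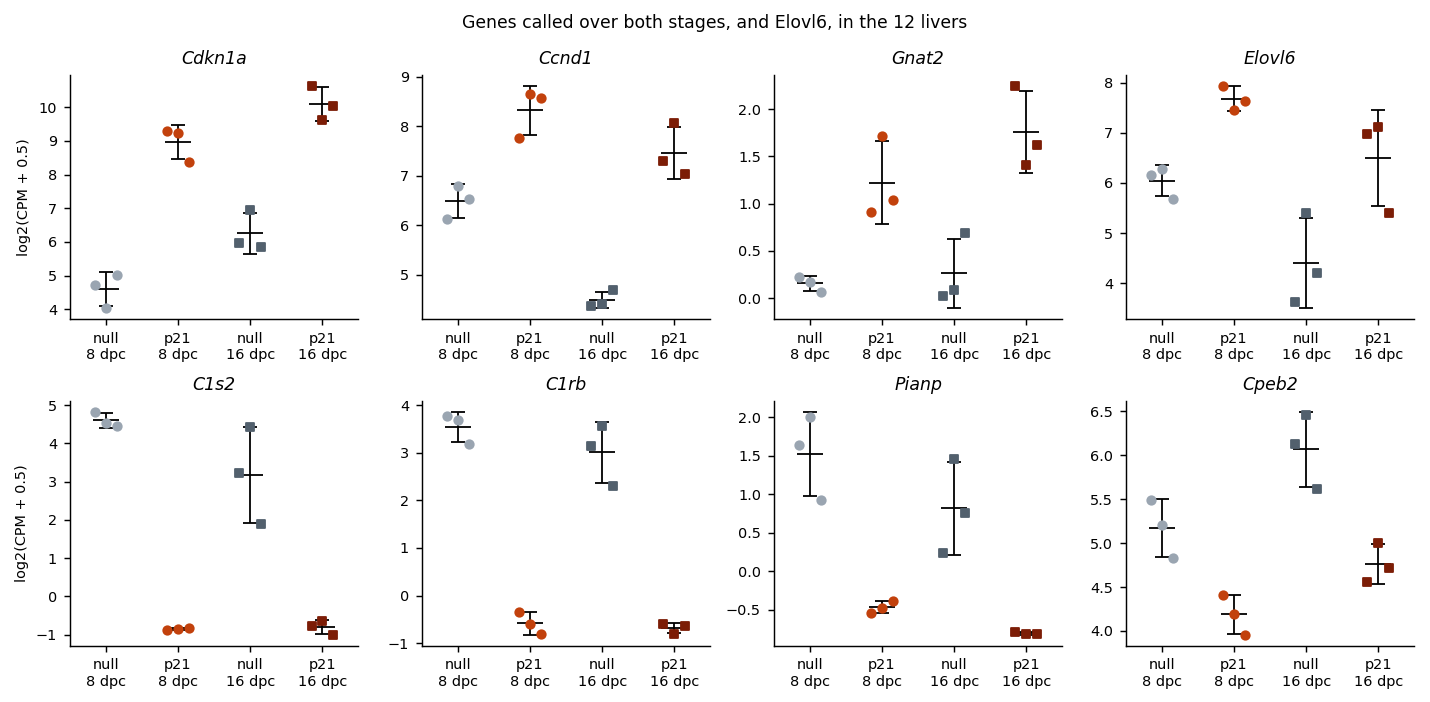
Levels of the 7 called genes and Elovl6 as log2(CPM + 0.5) in each of the 12 livers, by vector and stage. Points are single livers, bars are the mean and SD of 3 livers. The vectors do not overlap at either stage in any of the 8 panels, and C1s2, C1rb and Pianp sit near the floor in the 6 AAV8-p21 livers.

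The G2/M and mitosis list, from cyclin B and its kinase to spindle and kinetochore genes, had lower values with AAV8-p21 in all 29 members tested, with a median log2 fold change of -1.93. None was called by edgeR. The Wald test of DESeq2 called 5, all lower (0.925% of all genes), and 21 had an unadjusted p under 0.05 and lower values, where 6.69% of all genes did. The mean log2 CPM of the list was 3.19, 3.25 and 0.61 in the AAV8-null livers of 8 dpc and -0.01, 0.60 and 1.10 in the AAV8-p21 livers of 8 dpc. At 16 dpc it was 0.97, -0.35 and -0.06 with AAV8-null and 0.10, 0.24 and -0.40 with AAV8-p21. The 2 AAV8-null livers numbered 1 and 2 at 8 dpc were thus far above the rest, and the vectors overlapped at both stages. No member of the list separated the vectors at both stages. Without library 3 of the AAV8-null group at 8 dpc the median was -2.31, 29 of 30 tested members had an unadjusted p under 0.05 and lower values (5.94% of all genes), and Prc1, Nusap1 and Kif20a were called. The count of members at that p was lower without either of the other AAV8-null livers of 8 dpc, 15 without library 1 (median -1.59, 6.11% of all genes lower at that p) and 14 without library 2 (median -1.73, 7.50% of all genes). It was 15 without AAV8-p21 library 1 of 8 dpc (median -1.58, 6.57% of all genes).

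Prc1, encoding a protein that bundles microtubules at the spindle midzone, measured 13.3, 14 and 1.15 CPM in the AAV8-null livers of 8 dpc and 0.379, 0.876 and 1.61 CPM in the AAV8-p21 livers of 8 dpc. At 16 dpc it was between 0.239 and 1.71 CPM with AAV8-null and between 0.0698 and 0.490 CPM with AAV8-p21. Its log2 fold change was -2.95 ± 0.70 (SE, adjusted p = 0.148). Kif20a, a mitotic kinesin, had a log2 fold change of -2.65 ± 0.63 (adjusted p = 0.148). Mki67, which encodes the proliferation marker Ki67, was 41.9, 43.6 and 3.94 CPM with AAV8-null at 8 dpc against 4.27, 5.48 and 8.54 CPM with AAV8-p21. At 16 dpc it was 8.12, 1.51 and 1.45 CPM against 5.06, 3.28 and 1.05 CPM. Its stage-averaged log2 fold change of -1.39 ± 0.66 (adjusted p = 0.393) joins a difference in mean log2 CPM of -1.67 at 8 dpc and of -0.02 at 16 dpc. Hmmr, the hyaluronan-mediated motility receptor, was 13.1, 12.3 and 1.55 CPM with AAV8-null and 0.284, 0.767 and 0.807 CPM with AAV8-p21 at 8 dpc. At 16 dpc it was 0 to 1.97 CPM with AAV8-null and 0 to 0.488 CPM with AAV8-p21. Its log2 fold change of -3.14 ± 0.82 (adjusted p = 0.176) joins a difference in mean log2 CPM of -2.70 at 8 dpc and of -0.54 at 16 dpc. In each of these genes library 3 of the AAV8-null group at 8 dpc was the low liver of its group.

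The promoters of the mitotic genes share letters that the comparison did not use. Many such genes carry a CHR element, the letters TTTGAA or TTCGAA, and CCAAT boxes, which are known as sites of the cell cycle repressor and activator complexes and of NF-Y. In the window from 250 bases before to 50 after the annotated start, read on both strands in the RefSeq table for GRCm38.p6, 19 of the 24 tested members with a promoter in the table (79.2%) held a CHR element. The share was 16.8% over the 9697 tested genes with a promoter and 21.7% over all 27025 genes of the table. CCAAT was found in 79.2% of the list, in 43.1% of tested genes and in 41.1% of all. Among the 18 members with an unadjusted p under 0.05 and lower values, 14 held a CHR element (77.8%) and 15 a CCAAT box (83.3%). These shares are near those of the whole list. The list was chosen by mitotic function, so its shares say nothing about the vector. The 250 bases before the start are printed for 3 members that hold both, Prc1 (chr7:80294226-80294475, plus strand), Cdc20 (chr4:118437344-118437593, minus strand), the activator of the anaphase-promoting complex, and Cdk1 (chr10:69352913-69353162, minus strand), the mitotic kinase. A second entry for Prc1 (chr7:80294201-80294450) holds no CHR element in its 250 bases. Several other members, among them Hmmr, Plk1 and Aurka, also hold none in this shorter stretch. Capitals mark CHR elements and CCAAT boxes in either orientation, and Cdc20 and Cdk1 were chosen after their values were seen.
Prc1: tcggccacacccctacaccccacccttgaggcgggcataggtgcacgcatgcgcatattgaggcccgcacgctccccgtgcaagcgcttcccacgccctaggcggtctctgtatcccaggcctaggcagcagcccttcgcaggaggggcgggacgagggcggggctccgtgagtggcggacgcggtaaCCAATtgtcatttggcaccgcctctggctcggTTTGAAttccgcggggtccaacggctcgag
Cdc20: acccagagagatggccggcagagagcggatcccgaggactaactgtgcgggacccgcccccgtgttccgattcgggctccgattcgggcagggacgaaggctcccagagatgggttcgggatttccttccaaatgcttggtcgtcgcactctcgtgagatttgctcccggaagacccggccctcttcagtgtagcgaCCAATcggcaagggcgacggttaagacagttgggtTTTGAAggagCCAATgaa
Cdk1: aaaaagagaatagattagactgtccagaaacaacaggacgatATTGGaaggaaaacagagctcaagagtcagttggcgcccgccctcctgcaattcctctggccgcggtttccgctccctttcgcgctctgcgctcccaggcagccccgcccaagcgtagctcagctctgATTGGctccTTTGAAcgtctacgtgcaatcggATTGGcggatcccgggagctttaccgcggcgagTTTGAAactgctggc
Cdc20 had a log2 fold change of -2.98 ± 0.88 (adjusted p = 0.216) and Cdk1 one of -1.82 ± 0.59 (adjusted p = 0.246). A match of letters is a description of the window and not a binding site.

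Of the genes of G1/S and DNA replication 30 were tested. Among them none was called by edgeR, 1 was called lower by DESeq2 (0.925% of all genes), and the median log2 fold change was -0.23. Prim1, a DNA primase subunit, had a log2 fold change of -0.98 (adjusted p = 0.190), and Mcm7, part of the replicative helicase, one of -0.59 (adjusted p = 0.160). Mcm7 passed the DESeq2 test (adjusted p = 0.0347). The mean log2 CPM of the list ranged from 1.36 to 2.64 in the AAV8-null livers and from 1.16 to 2.14 in the AAV8-p21 livers, so the ranges overlapped.

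The targets of p53 other than Cdkn1a, among them genes of apoptosis and DNA repair, held no edgeR call among 19 tested. Of these 17 had negative log2 fold changes, 4 had an unadjusted p under 0.05 and lower values (6.69% of all genes), and the list's median was -0.34. DESeq2 called 2 lower (0.925% of all genes), Perp and Ei24. The list's mean log2 CPM was between 3.53 and 3.79 in the 6 AAV8-null livers and between 3.25 and 3.45 in the 6 AAV8-p21 livers, without overlap. Perp, a desmosomal p53 target, had a log2 fold change of -0.40 ± 0.11 (adjusted p = 0.210) and Ei24 one of -0.52 ± 0.15 (adjusted p = 0.211). The 11 tested genes of senescence and secreted factors had a median of -0.11 and no call by either tool. Cxcl1, a neutrophil-attracting chemokine, ranged from 0.770 to 52.1 CPM with AAV8-null and from 1.99 to 5.51 CPM with AAV8-p21 (log2 fold change -2.18, adjusted p = 0.278), and Hmgb2, a chromatin protein, had a log2 fold change of -0.88 (adjusted p = 0.318).

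The 3 largest falls were in genes on 1 stretch of chromosome 6. C1s2 and C1rb are paralogs of the complement proteases C1s and C1r, which start the classical complement cascade, and Pianp encodes a PILR-alpha-associated neural protein. C1rb lies at chr6:124570294-124581171 on the plus strand, C1s2 at chr6:124624625-124636085 on the minus strand and Pianp at chr6:124996694-125003096 on the plus strand of GRCm38. No other called genes lay within 1000000 bases of each other.

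C1s2 had 499, 399 and 430 counts in the AAV8-null livers of 8 dpc and 103, 263 and 38 in those of 16 dpc. With AAV8-p21 it had 1, 1 and 1 counts at 8 dpc and 1, 2 and 0 at 16 dpc. The 1732 counts with AAV8-null against 6 with AAV8-p21 make it 300.45-fold lower per scaled depth (95% exact interval 138 to 820, counting error only), with an adjusted p of 1.12e-05. C1rb had 235, 216 and 173 counts with AAV8-null at 8 dpc and 98, 143 and 52 at 16 dpc, against 6, 3 and 1 and then 2, 1 and 2 with AAV8-p21. It was 63.6-fold lower (95% exact interval 38.4 to 114, adjusted p = 1.23e-06). Pianp, the weakest of the 3 in counts, had 47, 61 and 28 counts and then 8, 28 and 14 with AAV8-null. It had 4, 4 and 4 counts and then 1, 1 and 1 with AAV8-p21, or 12.9-fold lower (95% exact interval 7.63 to 23.5, adjusted p = 0.0011). C1s2 and C1rb were near 0 in every AAV8-p21 liver and in no AAV8-null liver, while for Pianp the lowest AAV8-null liver, with 8 counts, was closer to the highest AAV8-p21 livers, with 4. These calls held in all 12 fits that left out 1 library. In a fit without the 3 AAV8-p21 livers of 16 dpc those of C1s2 and C1rb held and that of Pianp did not (log2 fold change -3.44, adjusted p = 0.115, an alternative chosen after seeing the data).

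The genes around them held no other edgeR call. Between C1rb and Pianp 15 other genes were tested, none was called by edgeR, and their log2 fold changes ranged from -1.97 to 1.01. The lowest of these was Cdca3, a cell division gene (log2 fold change -1.97 ± 0.59, adjusted p = 0.220), named after its value was seen, and DESeq2 called it and none of the other 14 (adjusted p = 0.0352). The neighbouring paralogs C1ra (109 to 165 CPM with AAV8-null, 119 to 184 CPM with AAV8-p21, log2 fold change 0.10) and C1s1 (log2 fold change 0.35, adjusted p = 0.443) were not called. Of the 86-base windows of C1rb transcripts, as long as a read, 46.3% occur also in C1ra, and 12.7% of those of C1s2 occur in C1s1. Reads from such windows would not map uniquely, so part of each gene cannot be counted, in all libraries alike. The rest of the complement list, 27 of 29 tested members, held no call in either direction, and its median with C1rb and C1s2 included was 0.10. What the AAV8-p21 and AAV8-null mice differ in at this stretch, other than the vector, was not tested, a difference in substrain or colony included.

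**Figure D3:**
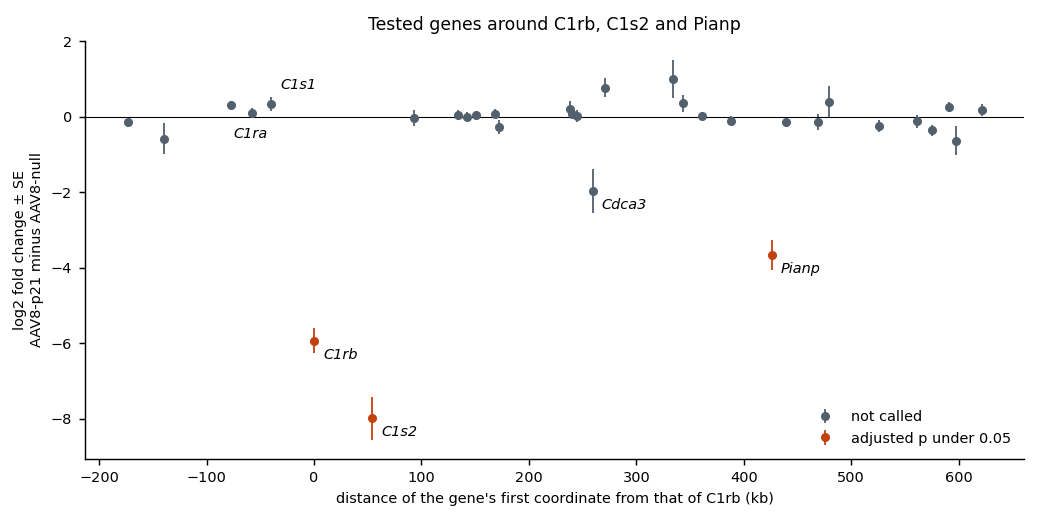
Log2 fold change ± SE of AAV8-p21 minus AAV8-null for the tested genes around C1rb, C1s2 and Pianp, plotted against the distance in kilobases of each gene's first coordinate from that of C1rb. The 3 called genes lie at -5.92, -7.98 and -3.65, and the other genes lie between -1.97 (Cdca3) and 1.01 (Lag3).

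Cpeb2 and Gnat2 were the remaining calls, and both were nearer the threshold. Cpeb2, an mRNA-binding protein that acts on poly(A) tails and translation, measured 44.3, 36.5 and 27.9 CPM with AAV8-null at 8 dpc and 69.5, 87.4 and 48.5 CPM at 16 dpc. With AAV8-p21 it measured 20.8, 17.8 and 15.1 CPM and then 23.0, 31.5 and 25.9 CPM. It fell by 1.18 ± 0.17 on the log2 scale (SE, adjusted p = 0.0185), with all AAV8-p21 livers below the AAV8-null livers of their stage. Gnat2, a transducin subunit known from cone photoreceptors, was low in every liver, at 0.513 to 1.11 CPM with AAV8-null and 1.37 to 4.25 CPM with AAV8-p21. It rose by 1.82 ± 0.29 on the log2 scale (adjusted p = 0.0475). In the 12 fits that left out 1 library the adjusted p of Cpeb2 ran from 0.0050 to 0.0842, and its call held in 5, those without AAV8-null library 3 of 8 dpc, 2 or 3 of 16 dpc, or AAV8-p21 library 1 of 8 dpc or c of 16 dpc. The adjusted p of Gnat2 ran from 0.0449 to 0.114, and its call held in 2, those without AAV8-p21 library 1 of 8 dpc or c of 16 dpc. Over these 12 fits the log2 fold changes ran from -1.28 to -1.07 for Cpeb2 and from 1.65 to 1.95 for Gnat2.

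The genes next to the threshold are given as values and were named after these were seen. Cib2, a calcium-binding protein, had a log2 fold change of 1.26 (adjusted p = 0.0523). Akr1b7, an aldo-keto reductase, ranged from 1.25 to 4.45 CPM with AAV8-null and from 4.47 to 26.3 CPM with AAV8-p21 (log2 fold change 2.28, adjusted p = 0.0644). Tspan15, a tetraspanin, had a log2 fold change of 1.13, and Lbp, the acute-phase protein that binds lipopolysaccharide, one of -0.63 (adjusted p = 0.0644 for both). All 4 passed the DESeq2 test.

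Elovl6, the elongase that lengthens palmitate to stearate, did not pass the edgeR test but stood next to the threshold. It measured 71.0, 76.6 and 51.0 CPM with AAV8-null at 8 dpc and 11.8, 41.5 and 17.8 CPM at 16 dpc. With AAV8-p21 it measured 245, 174 and 199 CPM and then 125, 139 and 41.7 CPM. The vectors did not overlap within a stage, though library c at 16 dpc was just above the highest AAV8-null liver of its stage. The log2 fold change was 1.87 ± 0.33 (SE, adjusted p = 0.0644), and the Wald test gave an adjusted p of 9.45e-06. The exact permutation test gave p = 0.005, which the lack of overlap at both stages fixes. Without a single library the adjusted p of edgeR ranged from 0.014 to 0.172, and the call was made in 2 of these 12 fits, without library c (0.014) and without AAV8-null library 2 of 16 dpc (0.0463).

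Genes of de novo lipogenesis, which turn acetyl-CoA into fatty acids, were mostly higher with AAV8-p21 without passing the test one by one. Of 22 tested, 20 had positive and 2 negative log2 fold changes. None was called by edgeR, and DESeq2 called 4 higher (0.652% of all genes). At an unadjusted p under 0.05, 11 were higher (6.29% of all genes) and 1 was lower (6.69%). The median log2 fold change was 0.70. Mid1ip1, which activates acetyl-CoA carboxylase, had a log2 fold change of 1.52 ± 0.28 (adjusted p = 0.0782). Fasn, fatty acid synthase, ranged from 63.4 to 303 CPM with AAV8-null and from 74.7 to 764 CPM with AAV8-p21 (log2 fold change 1.47 ± 0.40, adjusted p = 0.190). Acly, the ATP-citrate lyase, had a log2 fold change of 1.29 (adjusted p = 0.183), Srebf1, the regulator of lipogenic genes, one of 1.03 (adjusted p = 0.472), and Scd1, a stearoyl-CoA desaturase, one of 0.98 (adjusted p = 0.504). Fasn, Acly, Srebf1 and Scd1 were named after their values were seen. The mean log2 CPM of the list was 6.64, 6.81 and 6.04 with AAV8-null and 7.63, 7.18 and 7.36 with AAV8-p21 at 8 dpc. At 16 dpc it was 6.28, 6.75 and 5.56 with AAV8-null and 7.31, 7.23 and 5.82 with AAV8-p21, where library c was the low one. Without it Mid1ip1, Elovl6 and Fasn were called, 16 of 22 had an unadjusted p under 0.05 and higher values (7.94% of all genes), and the median was 0.85.

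Cholesterol synthesis and uptake followed the same direction. All 24 members had positive log2 fold changes, with a median of 0.97, and 13 had an unadjusted p under 0.05, where 6.29% of all genes did with higher values. None was called by edgeR and 2 by DESeq2 (0.652% of all genes higher). The count of 13 became 6 with the clock score in the fit, where 4.15% of all genes were higher at that p. It became 20 without library c of the AAV8-p21 group at 16 dpc (7.94% of all genes) and 5 without library a (4.19%). Without AAV8-null library 1, 2 or 3 of 16 dpc it was 7, 21 and 6 (6.23%, 5.59% and 4.96% of all genes), and without AAV8-p21 library 2 of 8 dpc it was 8 (6.02%), while the median stayed between 0.72 and 1.37. Mvk, mevalonate kinase, had a log2 fold change of 1.44 ± 0.36 (adjusted p = 0.159), and Lss, lanosterol synthase, one of 1.12 ± 0.32 (adjusted p = 0.206). The list's mean log2 CPM was 4.34 to 6.16 against 6.404 to 6.94 at 8 dpc, without overlap, and 4.40 to 6.30 against 5.12 to 6.71 at 16 dpc, with overlap.

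Fatty acid oxidation and the targets of PPAR-alpha went the other way. All 24 members had negative log2 fold changes, with a median of -0.57, and 10 had an unadjusted p under 0.05, where 6.69% of all genes did with lower values. None was called by edgeR and 2 by DESeq2 (0.925% of all genes lower). The list's mean log2 CPM was 7.75, 7.34 and 8.71 in the AAV8-null livers of 8 dpc and 7.095 to 7.97 in the AAV8-p21 livers of 8 dpc, so library 3 was the high one of its group. Without it 4 members had an unadjusted p under 0.05 (5.94% of all genes lower) and the median was -0.35. The count was 6 without AAV8-null library 2 of 16 dpc (6.04%) or AAV8-p21 library 1 of 8 dpc (6.57%), 3 and 4 without AAV8-p21 library a and b of 16 dpc (4.77% and 5.57%), and 14 without library c (7.74% of all genes lower). It was also 14 without AAV8-null library 2 of 8 dpc (7.50%) or with the clock score (5.52%). Without AAV8-p21 library 3 of 8 dpc it was 15 (6.77%). At 16 dpc the list's mean was 8.94 to 9.64 with AAV8-null and 7.54 to 8.85 with AAV8-p21, without overlap. Vnn1, a pantetheinase, had a log2 fold change of -1.33 ± 0.34 (adjusted p = 0.168), and Acot1, a cytosolic acyl-CoA thioesterase, one of -1.53 ± 0.44 (adjusted p = 0.210). Cpt1a, the gate of fatty acid entry into mitochondria, ranged from 280 to 1084 CPM with AAV8-null and from 153 to 1158 CPM with AAV8-p21 (log2 fold change -0.58, adjusted p = 0.484). Pdk4, which restrains pyruvate entry into mitochondria, was 34.5, 15 and 14 CPM and then 153, 1169 and 105 CPM with AAV8-null, and 22.5, 13.1 and 15.9 CPM and then 21.5, 39.3 and 13.8 CPM with AAV8-p21. Its averaged log2 fold change of -2.30 ± 0.89 (adjusted p = 0.318) joins a difference in mean log2 CPM of -0.21 at 8 dpc and of -3.52 at 16 dpc. Cpt1a was named after its values were seen.

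**Figure D4:**
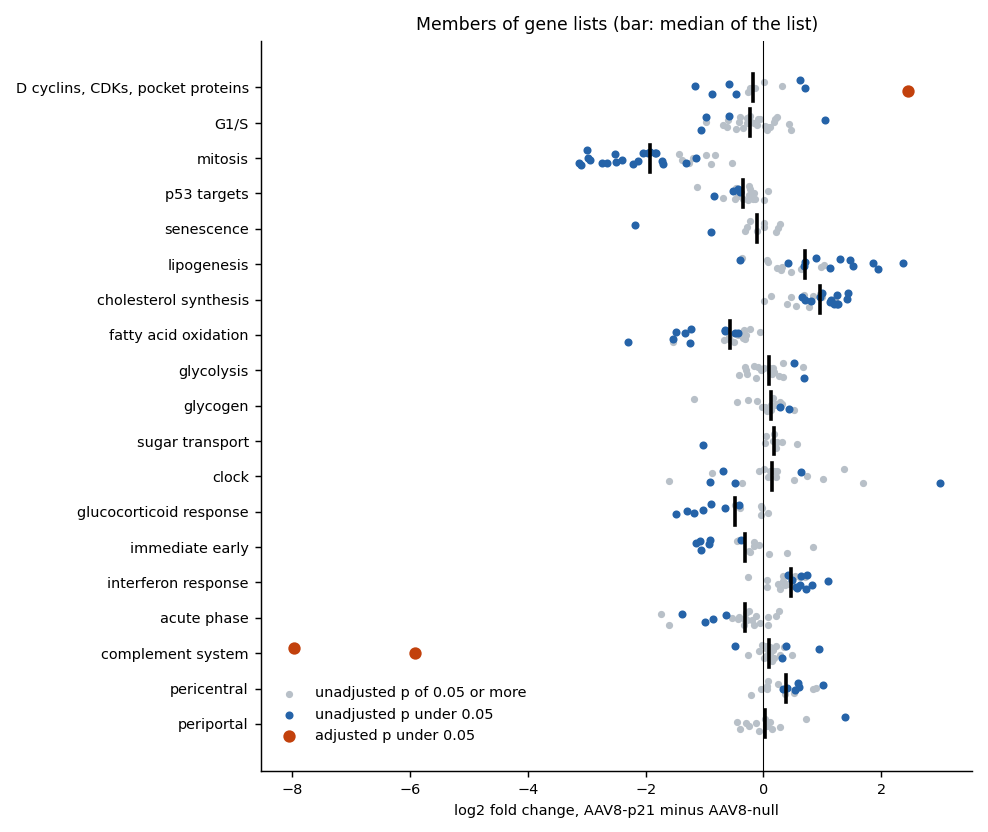
Log2 fold change of AAV8-p21 minus AAV8-null for the tested members of 19 gene lists, 1 point per gene, coloured by the edgeR test, with a black bar at the median of each list. Medians lie lowest for mitosis (-1.93) and highest for cholesterol synthesis (0.97), and the only called members are Ccnd1, C1s2 and C1rb.

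Sugar and glycogen genes held no edgeR call. The medians were 0.10 over 23 genes of glycolysis and gluconeogenesis, 0.13 over 17 of glycogen, 0.18 over 9 sugar transporters and 0.14 over 9 of the pentose phosphate pathway with H6pd and Hsd11b1. Slc45a3, a sugar transporter, was 41.0, 44.1 and 41.9 CPM and then 95, 49.7 and 46.1 CPM with AAV8-null, against 33.7, 35.2 and 14.5 CPM and then 26.9, 17.0 and 25.4 CPM with AAV8-p21. All AAV8-p21 livers were below all AAV8-null livers, with a log2 fold change of -1.03 ± 0.26 (adjusted p = 0.163 by edgeR and 0.0169 by DESeq2). H6pd, hexose-6-phosphate dehydrogenase of the endoplasmic reticulum, had a log2 fold change of -0.57 ± 0.18 (adjusted p = 0.246). Sgk1, the serum- and glucocorticoid-regulated kinase, was 8.40 to 25.8 CPM with AAV8-null and 11 to 18.2 CPM with AAV8-p21 at 8 dpc, and 161 to 252 CPM against 31.6 to 78.9 CPM at 16 dpc. Its averaged log2 fold change was -1.03 ± 0.41 (adjusted p = 0.325). Pfkfb1, which sets fructose-2,6-bisphosphate, had a log2 fold change of 0.52 (adjusted p = 0.328), the liver pyruvate kinase Pklr 0.69 (adjusted p = 0.270), and the transaldolase Taldo1 0.38 (adjusted p = 0.454). The values were 0.28 for Phkb, a phosphorylase kinase subunit, and 0.32 for the urate and hexose transporter Slc2a9 (adjusted p = 0.380 and 0.438).

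Targets of the glucocorticoid receptor were mostly lower with AAV8-p21. Of 13 tested 12 had negative log2 fold changes, the median was -0.49, none was called by edgeR, DESeq2 called 5 lower (0.925% of all genes) and 7 had an unadjusted p under 0.05 and lower values (6.69% of all genes). Klf9, a transcription factor induced by glucocorticoids, ranged from 79.0 to 166 CPM with AAV8-null and from 47.8 to 134 CPM with AAV8-p21, without overlap within a stage (log2 fold change -0.90 ± 0.20, adjusted p = 0.122). For the metallothionein gene Mt2 the log2 fold change was -1.49 ± 0.38 (adjusted p = 0.163), and for Mt1 it was -1.17 ± 0.33 (adjusted p = 0.206). Zbtb16, a zinc finger repressor, was 21.1, 15.9 and 14 CPM with AAV8-null and 3.65, 4.16 and 2.69 CPM with AAV8-p21 at 8 dpc, whereas at 16 dpc the vectors overlapped (12.1 to 24.4 and 8.25 to 15.6 CPM). Its averaged log2 fold change was -1.31 ± 0.35 (adjusted p = 0.176), and Mt1 and Zbtb16 were named after their values were seen. With the clock score as a covariate the median of this list was -0.81 and 8 members had an unadjusted p under 0.05 and lower values, where 5.52% of all genes did. Without library c of the AAV8-p21 group at 16 dpc edgeR called Klf9 lower. The voom method of limma with sample weights called Mt2, Klf9 and Mt1 lower.

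Clock genes varied widely among livers of a group. Of 20 tested none was called by either tool, and the median was 0.15, or -0.40 with the clock score in the fit, which is built from 9 of them. Dbp, an output factor of the clock, was 3.29, 3.94 and 8.74 CPM and then 1.62, 10.9 and 1.28 CPM with AAV8-null, against 0.616, 1.64 and 58.9 CPM and then 115, 77.8 and 49.7 CPM with AAV8-p21 (log2 fold change 3.0 ± 0.95, adjusted p = 0.242). Library 3 of the AAV8-p21 group at 8 dpc went with the 16 dpc livers of that vector and not with its own group. Arntl, the clock activator also called Bmal1 and named after its values were seen, was at 20.5 to 30.2 CPM in libraries 1 and 2 and at 2.35 CPM in library 3 of that group, and its log2 fold change was -1.61 (adjusted p = 0.404). Rora, which drives Arntl, had one of -0.48 (adjusted p = 0.315). With the score in the fit Cdkn1a, Ccnd1, C1s2, C1rb and Pianp remained called, while Cpeb2 and Gnat2 had log2 fold changes of -1.10 and 1.83, near those without it, and were not called (adjusted p = 0.135 for both).

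**Figure D5:**
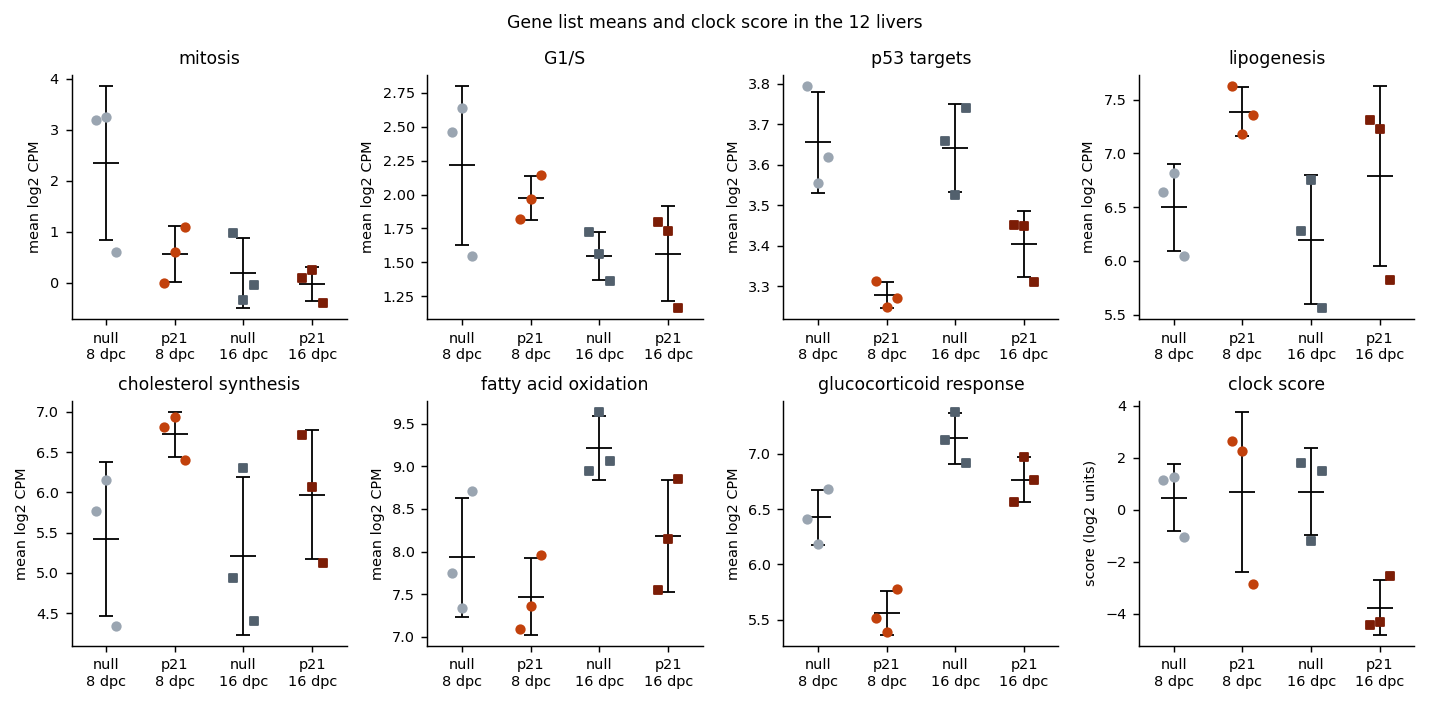
Mean log2 CPM of 7 gene lists and the clock score in each of the 12 livers, by vector and stage, with the mean and SD of 3 livers. The p53 target means do not overlap between vectors (3.53 to 3.79 against 3.25 to 3.45), the mitosis means are high in 2 of 3 AAV8-null livers of 8 dpc, and the clock scores of the 3 AAV8-p21 livers of 16 dpc lie below all AAV8-null scores.

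Stress and immune lists held no edgeR call, and DESeq2 called Oasl1 higher and Gadd45g, Lbp and Serpina3n lower. Interferon response genes had a median of 0.48 over 24 tested, 10 with an unadjusted p under 0.05 and higher values (6.29% of all genes). That count was 6 without AAV8-null library 3 of 8 dpc (5.27% of all genes), without AAV8-null library 2 or 3 of 16 dpc (5.59% and 4.96%), or with the clock score (4.15% of all genes), and 5 without AAV8-p21 library a of 16 dpc (4.19%). It was 14 without AAV8-p21 library c of 16 dpc (7.94%). Oasl1, an antiviral gene, had a log2 fold change of 0.73 (adjusted p = 0.176), and Usp18, which trims interferon signalling, one of 0.65 (adjusted p = 0.187). Immediate-early genes had a median of -0.31 over 16 tested, with Gadd45g at -1.14 ± 0.28 (adjusted p = 0.159) and Egr1 at -0.93 (adjusted p = 0.248). The list of amino acid response and endoplasmic reticulum stress had a median of -0.43 over 13 tested, with Sesn2 at -0.43 (adjusted p = 0.271) and Herpud1 at -0.70 (adjusted p = 0.308). Acute-phase proteins had a median of -0.32 over 23 tested. Lbp was 161 to 260 CPM with AAV8-null and 99.7 to 172 CPM with AAV8-p21, without overlap within a stage, and Serpina3n, a serine protease inhibitor, had a log2 fold change of -0.997 ± 0.27 (adjusted p = 0.193).

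Lists of other hepatocyte functions held no edgeR call, and DESeq2 called Cyp7a1 and Lect2 higher and Cyp3a13 lower. Medians were 0.01 over 17 genes of bile acid synthesis and transport, 0.07 over 20 drug-metabolizing cytochromes P450, 0.06 over 18 of the urea cycle and amino acid catabolism, -0.15 over 12 of growth hormone and prolactin signalling, and 0.02 over 13 periportal markers. Pericentral markers and Wnt targets had a median of 0.39 over 16 tested, of which 14 had positive log2 fold changes and 6 an unadjusted p under 0.05 and higher values (6.29% of all genes), or 3 with the clock score in the fit (4.15%). Cyp7a1, the rate-limiting enzyme of bile acid synthesis, ranged from 5.501 to 148 CPM with AAV8-null and from 43.3 to 266 CPM with AAV8-p21 (log2 fold change 2.36 ± 0.62, adjusted p = 0.176), and Cyp27a1, of the alternative bile acid pathway, had a log2 fold change of 0.43 (adjusted p = 0.474). For the cytochromes Cyp3a13 and Cyp3a25 the log2 fold change was -0.49 (adjusted p = 0.190) and -0.52 (adjusted p = 0.337). Tdo2, which opens tryptophan breakdown, had one of -1.06 ± 0.33 (adjusted p = 0.235) and Glul, glutamine synthetase of the cells around the central vein, one of 0.33 (adjusted p = 0.288). Lect2, a secreted pericentral product, had one of 1.01 ± 0.27 (adjusted p = 0.176) and Nkd1, a Wnt antagonist, one of 0.58 (adjusted p = 0.240). For the estrogen receptor gene Esr1 the log2 fold change was 0.44 (adjusted p = 0.356), and for Igfbp1, which binds insulin-like growth factors, it was -0.88 (adjusted p = 0.351). The periportal genes Cdh1, encoding E-cadherin, and Hsd17b13, a lipid droplet enzyme, had values of 1.39 and -0.45 (adjusted p = 0.267 and 0.452).

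No marker list of another liver cell type held an edgeR call, and the part of such cells in the results above was not tested. DESeq2 called both tested neutrophil markers lower (S100a8, adjusted p = 4.1e-05, and S100a9, 0.00683) and Spp1 higher (0.00155). The widest differences were in neutrophil genes. S100a8 ranged from 1.67 to 7.76 CPM with AAV8-null and from 0.488 to 1.04 CPM with AAV8-p21, without overlap (log2 fold change -2.17 ± 0.38, adjusted p = 0.0644), and S100a9 had a log2 fold change of -1.72 ± 0.42 (adjusted p = 0.159). The other 2 neutrophil markers were too low to test, Ly6g at 0 in 8 of 12 libraries. The 5 tested bile duct markers had a median of 0.73, with 3 positive and 2 negative log2 fold changes. Of them Spp1, which encodes osteopontin, had a log2 fold change of 1.21 ± 0.25 (adjusted p = 0.107), and Epcam, at 0 to 1.26 CPM, one of 1.40 (adjusted p = 0.259). Stellate cell and fibroblast markers had a median of 0.55 over 8 tested, with Col1a1 at 1.16 and Reln at 0.65 (adjusted p = 0.266 and 0.270), all 8 with positive log2 fold changes and 4 with an unadjusted p under 0.05 and higher values (6.29% of all genes), or 2 with the clock score in the fit (4.15%). Their summed level at 8 dpc was 173 to 265 CPM with AAV8-null and 295 to 364 CPM with AAV8-p21, without overlap, and at 16 dpc it was 323 to 427 CPM and 364 to 379 CPM, with overlap. Endothelial markers had a median of 0.09 over 8 (Lyve1 -0.97, Clec4g 0.26), Kupffer cell markers 0.20 over 8 (Marco 0.92, Vsig4 0.22) and red cell markers 0.35 over 5 (Hba-a2 1.33, Alas2 0.38). For the 2 tested T and NK cell markers, Cd3g and Nkg7, the values were 0.65 and 0.58, and for the B cell markers Cd79a and Cd79b 0.12 and 0.00072, with signs of both turning under other settings. Hepatocyte markers had a median of 0.14 over 7 tested (Ttr 0.36, Fgb -0.34). No pancreatic acinar or adipocyte marker was high enough to test. Of the substrain genes Wdfy1 had a log2 fold change of -1.13 (adjusted p = 0.306) and Ide one of -0.07.

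Whether the vector effect differed between the stages was tested as a vector by stage term in the same libraries. No gene of 12091 was called by edgeR (0.00%), 396 (3.28%) had an unadjusted p under 0.05, and DESeq2 called 14 of the 6842 genes to which it gave an adjusted p. Among the genes named here the unadjusted p of the term was 0.0010 for Zbtb16, 0.0031 for Pdk4, 0.0033 for Slc2a9, 0.0067 for Arntl and 0.0071 for Sgk1 and none passed adjustment. In mean log2 CPM the vectors differed by -2.13 at 8 dpc and -0.36 at 16 dpc for Zbtb16, by 0.11 and -2.05 for Sgk1 and by -0.46 and -3.46 for Arntl. For Cdkn1a, C1rb and Elovl6 the unadjusted p was 0.310, 0.929 and 0.487.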

How the data were processed

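Liver RNA of 15 mice was sequenced by the authors after poly(A) selection with a stranded kit. Per the labels, reads were trimmed with cutadapt 1.14, mapped with HISAT2 2.1.0 to mm10 and counted with HTSeq 0.12.4, and per the study's methods only uniquely mapped reads on protein-coding genes were kept. The deposited values are raw counts for 21702 genes, used as deposited. Genes low in counts were removed (filterByExpr, minimum count 10), which left 12091. The 12 libraries of the pregnant groups were scaled by TMM (factors 0.712 to 1.31) and fitted in edgeR 4.0.16 (R 4.3.3) with vector and stage as terms. The quasi-likelihood test was adjusted by Benjamini-Hochberg over all genes tested, and a gene was called at an adjusted p under 0.05. The dispersion was 0.269 as a common coefficient of variation, with 9 residual degrees of freedom. DESeq2 1.42.0, voom of limma 3.58.1, other filters, covariates and libraries left out were alternatives. CPM values use the TMM-scaled library sizes. The scripts were tested on simulated data. Lists are described by counts and medians and were not tested as sets.

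Replicates of a group differed by 20.3 to 162 times the counting noise (chi-square per degree of freedom), so none was a copy of another. Named genes were Cdkn1a, Ccnd1 and Elovl6, called genes whose vectors do not overlap at either stage, in each list the called members or, with none, the 2 of smallest p, and 6 genes the study names. Some genes, including members that this rule takes, are not reported here. The members and lists were chosen with earlier results of these data known. Promoter sequences are RefSeq entries for GRCm38.p6, and Cdkn1a positions are from GENCODE on GRCm38. Intervals cover counting error only.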

Additional observations from a re-analysis of the deposited data

How the results depend on the processing

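Against 7 genes (3 higher, 4 lower), edgeR called 19 (10 higher, 9 lower) with no filter on low counts, 3 (1 lower) where every library had at least 10 counts, 16 (7 higher, 9 lower) with all 15 libraries, 36 (11 higher, 25 lower) came from voom with sample weights, and 208 (86 higher, 122 lower) from DESeq2. With Cdkn1a left out, 5 genes were called (1 higher, 4 lower). Leaving out each library in turn gave 5 to 21 calls, 2 to 11 higher and 3 to 15 lower. The largest counts were 17 without library 3 of the AAV8-null group at 8 dpc and 21 without library c of the AAV8-p21 group at 16 dpc. C1s2, C1rb, Pianp and Gnat2 had fewer than 10 counts in at least 1 library, so the filter of at least 10 counts left them untested. Under that filter the calls of Cdkn1a, Ccnd1 and Cpeb2 were kept. The cause of the other moves was not tested. Cdkn1a, Ccnd1, C1s2, C1rb and Pianp were called in each fit with 1 library left out. Same-numbered libraries correlated at -0.30 to 0.31 in their deviations, so the numbers do not pair them. A fit with the number as a block, on the 9 libraries whose columns carry one, called 4 genes (1 higher, 3 lower), and the same 9 without the block called 3 (1 higher, 2 lower), the latter alternative chosen after seeing the data. These 9 hold no AAV8-p21 liver of 16 dpc, so their vector effect comes from 8 dpc alone. Of the 7 calls Cdkn1a, C1s2 and C1rb held in both of these fits. Ccnd1 (adjusted p = 0.0516 with the block and 0.0743 without), Pianp (0.164 and 0.115), Cpeb2 (0.499 and 0.540) and Gnat2 (0.870 and 0.579) did not. Gnat2 was also not called with the vector by stage term (0.0562) or with Cdkn1a left out (0.0554), and Elovl6 was called with no filter, voom, all 15 libraries and DESeq2. The vector by stage term called 14 genes in DESeq2 and 0 in the fits with 1 library left out. The clock score moved the median of the clock list to -0.40 and of the glucocorticoid list to -0.81. Signs turned for genes that were not called. Slc2a9 was at -0.10 with the block and -0.11 in the same 9 libraries without it, and Igfbp1 and Sgk1 were at 0.12 and 0.13 with the block. Cd79b was at -0.0016 with DESeq2 size factors, -0.0033 without a filter, -0.048 with voom, -0.034 with all 15 libraries and -0.033 with the vector by stage term, and between -0.17 and 0.15 without single libraries. Cd79a ranged from -0.06 to 0.28 without single libraries. At counts below about 3 per library, as for C1s2 with AAV8-p21, depth limits the fold.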

Other observations

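The 3 non-pregnant AAV8-null livers were in no comparison above. Scaled together with the other 12, they held Cdkn1a at 33.7, 5.12 and 3.29 CPM and Ccnd1 at 111, 60.9 and 56.1 CPM. C1s2, with 126, 188 and 181 counts, C1rb, with 152, 71 and 69, and Pianp, with 29, 28 and 15, were present in all 3, as in the pregnant AAV8-null livers. Cpeb2 was at 33.2, 19.6 and 28.2 CPM, Gnat2 at 0.485, 0.366 and 0.210 CPM and Elovl6 at 51.6, 59.9 and 74.0 CPM. Nnt had 12, 25 and 15 counts.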
